A study of Mus musculus with 68 samples.

Results

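Oxidative phosphorylation genes of the nuclear genome were followed through the mouse growth plate, the cartilage disc that lengthens bone. The set was formed by name from the deposited gene table: symbols beginning with Ndufa, Ndufb, Ndufc, Ndufs, Ndufv, Sdh, Uqcr, Cox4, Cox5, Cox6, Cox7, Cox8 or Atp5, without the assembly factors Ndufaf and Sdhaf and without Ndufa4l2. It held 84 of the 23420 genes in the table. By name, 37 members belong to complex I, 4 to complex II, 8 to complex III, 18 to complex IV and 17 to complex V. The prefixes also take in Atp5s and Atp5sl, which are not structural subunits of the ATP synthase, and Ndufa4, which is now counted with complex IV.

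Growth plate cells of mixed-background mice were cut from frozen, stained 10 µm sections by laser capture, and polyA RNA was made into SMART-seq2 libraries without RNA extraction. Resting, proliferative and hypertrophic zones were captured at postnatal day 2 (P2), at day 3 (P3, 1 animal) and at day 28 (P28). All P2 and P3 sections and 26 of the P28 libraries were fixed in ethanol, and 14 further P28 libraries came from xylene-treated sections. No genotype or treatment other than fixation distinguishes the groups in the labels. Libraries of at least 100000 counts were summed per animal, zone and fixation, and these sums are the replicates: 4 per zone at P2, 3 per zone at P28 in ethanol and 2 per zone at P28 in xylene. Animals are given letters within each age. P2 animal D and P28 animal B have labels that name several animals, and P28 animal D supplied both ethanol and xylene sections. The samples fall into sets with and without a description in the labels, and the set without one holds P2 animals F and G, P28 animals D and E and the P3 animal, and so every xylene sum.

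Of 51 ethanol libraries at P2 and P28, 25 fell under the minimum, and 12 of the 14 xylene libraries passed. Totals ranged from 748 to 3347722 counts per library, and the ribosomal precursor Rn45s alone took between 2.95% and 94.02% of a library. Levels of members in single sums are therefore given as CPM, here counts per 1000000 counts outside Rn45s, Lars2 and Glra2, 3 symbols left out of the base. At least 9 of 10 chondrocyte markers were detected in every sum. In P28 ethanol sections the summed resting markers ran from 3808 to 4568 CPM in resting, 895 to 1175 in proliferative and 47.2 to 383 in hypertrophic sums. Among the P28 sums, the resting sum of animal D stood apart. In it 39 of the 84 members were detected, and 188 of its 541 member counts came from Ndufs1 alone. Complex V made up 3.88% of its member counts, against 19.3% to 31.4% in the other 14 P28 sums. Several P2 sums held fewer member counts. Among them, hypertrophic animals A and C had 169 and 99, with 34 and 35 members detected, and proliferative animal E had 251, with 41 detected. Some results that rest on the resting sum of P28 animal D are given with and without that animal, and others only with it.

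Oxidative phosphorylation couples electron transfer to ATP synthesis in the inner mitochondrial membrane. Complexes I and II take electrons from NADH and succinate, complex III passes them to cytochrome c, complex IV hands them to oxygen, and complex V uses the resulting proton gradient to make ATP. Growth plate cartilage has no blood vessels and its chondrocytes are known for a largely glycolytic metabolism. Several cytochrome oxidase subunits exist as alternative isoforms, among them Cox4i2, known as a hypoxia-responsive partner of the ubiquitous Cox4i1, and the heart and muscle forms Cox6a2, Cox7a1 and Cox8b. The subunits encoded by mitochondrial DNA were not analysed here.

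The nuclear genes of the chain are known targets of the nuclear respiratory factors, so their upstream regions were read first. RefSeq promoters (GRCm38.p6) were matched for 70 of 84 members, and the 250 bases before each start were searched on both strands. The full NRF1 motif, a palindrome of GCGCA followed at once by TGCGC, was found in 4 of 70 members (5.71%), in 0.781% of all 27025 promoters and in 1.90% of 5208 promoters of other genes tested in the zone comparison. The 4 members were Cox6a1 and Atp5g2, at opposite ends of the level range, the small ATP synthase subunit Atp5k and the complex I subunit Ndufa11. Their 60-base windows around the motif, 5′ to 3′ on the strand of the gene with the motif in capitals, show that the flanking bases differ between members:
Cox6a1 (chr5:115349086-115349145, minus strand): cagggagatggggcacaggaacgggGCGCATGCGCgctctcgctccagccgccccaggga
Atp5k (chr5:108434415-108434474, minus strand): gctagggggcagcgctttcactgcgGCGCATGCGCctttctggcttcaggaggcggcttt
Ndufa11 (chr17:56717677-56717736, plus strand): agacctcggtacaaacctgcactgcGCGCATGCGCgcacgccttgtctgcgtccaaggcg
Atp5g2 (chr15:102671055-102671114, minus strand): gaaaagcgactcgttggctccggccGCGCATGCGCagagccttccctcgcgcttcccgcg

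These motifs began 162 bases before the start in Cox6a1, 50 in Atp5k, 60 in Ndufa11 and 42 in Atp5g2. The shorter letters TGCGCA, which do not occur within the full motif, were present in 14 of 70 members (20%), 6.66% of all promoters and 13.3% of the other tested genes. The ETS motif CCGGAAG, bound by the GABP factor also called NRF2, was found in 15.7% of members, 7.05% of all promoters and 15.0% of the other tested genes. The 11 members with it ranked from 1 to 77 of 84 by level per length, Ndufb7, Sdhd, Atp5h, Atp5l and Ndufs3 among the lower ones. The 3 highest are shown as examples, with the motif in capitals as it reads on the strand of the gene (CCGGAAG or its complement CTTCCGG):
Cox6a1 (chr5:115348959-115348999, minus strand): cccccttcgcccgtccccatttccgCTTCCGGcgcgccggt
Atp5e (chr2:174464172-174464228, minus strand): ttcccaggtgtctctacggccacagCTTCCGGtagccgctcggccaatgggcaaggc
Uqcr11 (chr10:80406856-80406912, minus strand): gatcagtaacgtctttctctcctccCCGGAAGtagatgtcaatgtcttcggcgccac

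The YY1 letters AAGATGGCG were in 0 of 70 member windows and in 0.607% of all promoters. GGGCGG, the core of the Sp1 motif, was in 37.1% of members against 64.1% of the other tested genes, and CCAAT in 44.3% against 36.5%. A match is a description of letters, and an absence says only that the letters are not in these windows.

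Per unit of transcript length, the small subunits led. The mean level over the 21 ethanol sums, in TMM-scaled CPM (all counts as the base) per kb of exon, was 339 for Cox6a1, the ubiquitous liver-type subunit of cytochrome oxidase, 287 for Atp5e, the epsilon subunit of the ATP synthase, 212 for the complex I subunit Ndufa2, 177 for the complex III subunit Uqcr11 and 177 for Atp5g3, a proton-conducting c-ring subunit. Complex II was the lowest of the complexes by its leading members, with 31.8 CPM per kb for Sdhb, its iron-sulfur subunit, and 25.1 for Sdhd, a membrane anchor. Members were short, with a median exon length of 801.5 bp against 3527 bp for 6561 tested genes. They lie on 19 chromosomes, and 3 of them (Ndufa1, Ndufb11 and Cox7b) are on the X chromosome.

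Levels of some members may depend on how reads were assigned, which was not tested. For each member the share of 50-base stretches found in no other annotated gene was computed from GENCODE transcripts. Atp5h, Cox7c, Atp5l and Atp5g2, which share stretches with predicted genes such as Gm10250, Gm10012, Gm10221 and Gm10175, had 12.6% to 49.5% unique stretches and levels of 0.418 to 15.7 CPM per kb, with a median of 3.14. None of these 4 passed the low-count filter. The 54 members with at least 90% unique stretches had a median of 29.3 CPM per kb, and the 26 members between 50% and 90% had 33.7. Ndufs5 was at 0 in all 68 libraries although 58.8% of its stretches are unique, the others being shared with BC002163. Values of these members are uncertain, since the sources do not state how multi-mapping reads were counted. Cox6a2, Cox7a1, Cox8b and the testis form Cox8c summed to 11, 22, 8 and 4 counts over all 30 sums, against 11396 for Cox6a1, 4776 for Cox7a2 and 4034 for Cox8a, the ubiquitous counterparts. Summed skeletal muscle markers were between 40.9 and 2746 CPM over the ethanol sums at P2 and between 63.01 and 749 at P28.

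**Figure D1:**
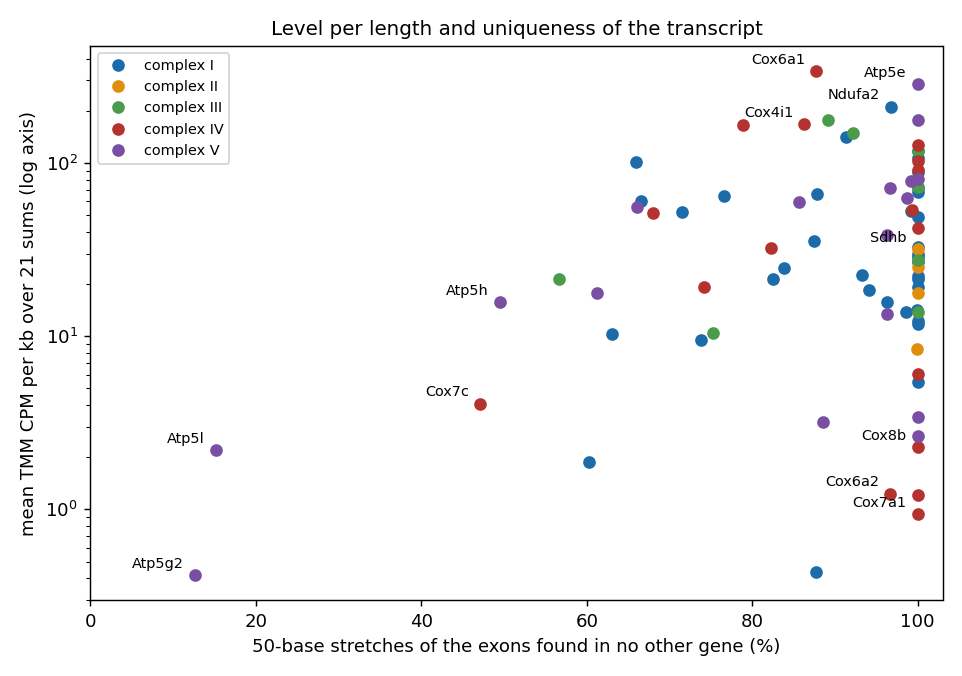
Mean TMM CPM per kb over 21 ethanol sums (y axis, logarithmic) against the percentage of 50-base exon stretches found in no other gene (x axis), 1 point per member with counts, coloured by complex. Atp5h, Cox7c, Atp5l and Atp5g2, at the left, lie between 0.418 and 15.7, and the tissue isoforms Cox8b, Cox7a1 and Cox6a2 lie low although their sequence is unique.

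At P28 the members together took their largest share of counts in the proliferative zone, in each of the 4 animals with sums and under both fixations. In ethanol sections the summed members made up 0.908% (animal A), 0.998% (B) and 0.683% (D) of counts outside the 3 symbols in the proliferative zone. The resting zone held 0.793%, 0.439% and 0.379% in the same animals, and the hypertrophic zone 0.718%, 0.554% and 0.608%. Resting values ran from 0.439 to 0.873 of the proliferative value of the same animal, and the ranges of the zones overlapped because animals differed. Group values were 0.863% ± 0.163 (SD, n = 3) for proliferative, 0.537% ± 0.224 for resting and 0.626% ± 0.0836 for hypertrophic sums.

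In xylene sections the proliferative zone held 1.04% (animal D) and 0.912% (E), the resting zone 0.727% and 0.481% and the hypertrophic zone 0.878% and 0.609%. Animal D therefore had the same order of proliferative above hypertrophic above resting in both fixations. A base without chondrocyte, hypertrophic, osteoblast, fibroblast and collagen genes, chosen after the values were seen, kept proliferative highest in each of the 5 animal and fixation sets, with resting at 0.398 to 0.801 of proliferative in ethanol and 0.488 to 0.666 in xylene. Summed chondrocyte markers moved with the zone in ethanol, at 90190 to 184300 CPM in resting and 250700 to 284500 in proliferative sums. Red blood cell markers were at 48.3 to 1253 CPM in resting and 2.66 to 57.6 in proliferative sums, with 1 to 3 of 7 detected, and endothelial and adipocyte markers were at 0 in both. The part of these cells in the result was not tested. In bulk samples fewer cells of a type and less RNA per cell cannot be told apart.

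The P2 zones showed no common order. Animal A had 0.809% in resting, 0.662% in proliferative and 0.381% in hypertrophic sums. Animal D had 0.700%, 1.08% and 0.892%, and animal G 0.675%, 0.613% and 0.856%. Animals F (resting), E (proliferative) and C (hypertrophic) gave 1 zone each, at 0.446%, 0.437% and 0.494%. Resting was thus below proliferative in 1 of 3 animals. The hypertrophic sums of animals A and C and the proliferative sum of animal E rest on 169, 99 and 251 member counts. The P3 animal had 0.606% in resting, 0.794% in proliferative and 0.574% in hypertrophic sums, with no replicate. Exact binomial 95% intervals, which cover counting error only, were narrow beside the differences between animals: that of the lowest value, 0.379%, ran from 0.348% to 0.412%.

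**Figure D2:**
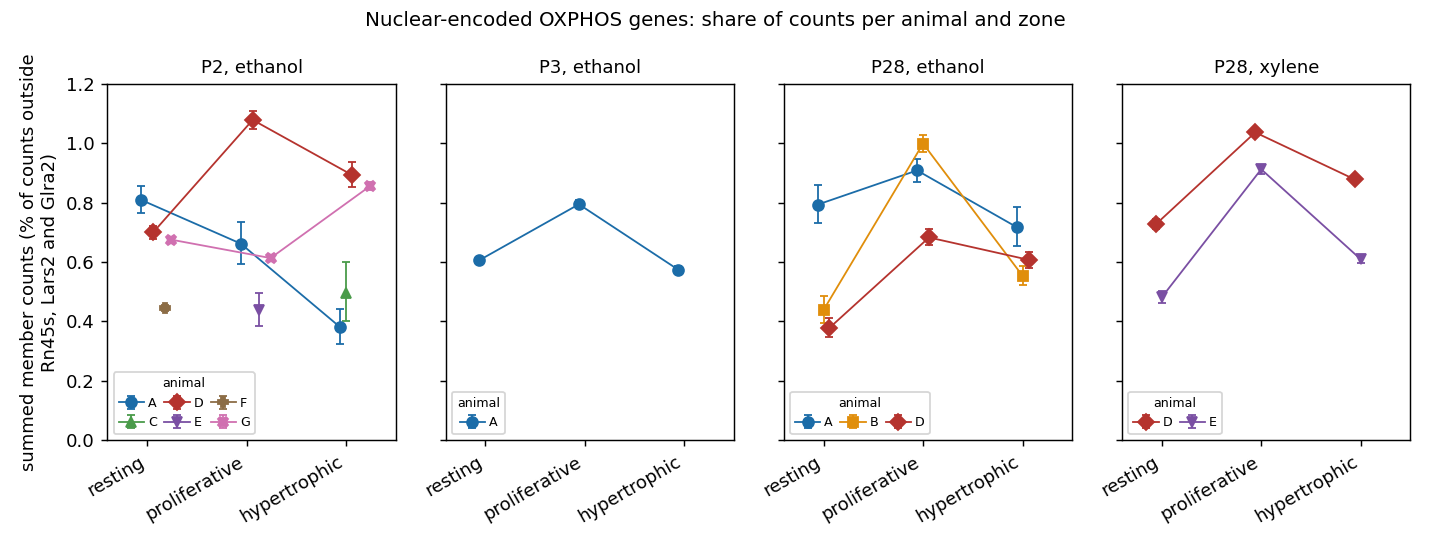
Summed member counts as a percentage of counts outside Rn45s, Lars2 and Glra2 (y axis) in each zone (x axis), 1 panel per age and fixation, 1 line per animal; bars are exact 95% binomial intervals. At P28 the proliferative value is highest on all 5 lines, from 0.683% to 1.04%, while the P2 lines cross.

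Gene by gene, resting was compared with proliferative zone at P28 in 1 edgeR quasi-likelihood fit over all 21 ethanol sums with a term per animal. The filter on low counts passed 68 of 84 members. No member was called at a Benjamini-Hochberg adjusted p of 0.05, where 0.561% of all 6958 genes tested were called (39 genes), and DESeq2 also called 0 members. The estimates nevertheless leaned to one side: 62 of 68 members were lower in the resting zone, with a median log2 difference of -1.62. Among all genes tested 66.4% were lower and the median was -0.81. Depth differed between these zones. The resting sums were 1 library each, with 73137, 82754 and 142839 counts outside the 3 symbols in animals A, B and D. The proliferative sums were 2 libraries each, with 225849, 472456 and 376189. The part of depth in the lean was not tested. The median standard error of a member was 1.55, about as large as the median itself. At an unadjusted p under 0.05, 8 of 68 members were lower and 0 higher, beside 10.5% of all genes in either direction.

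Each complex leaned the same way. All 11 tested members of complex IV (median -1.71), all 12 of complex V (-2.08) and all 4 of complex II (-1.38) were lower in the resting zone, as were 28 of 33 in complex I (-1.51) and 7 of 8 in complex III (-1.34). Within animals, 51, 60 and 52 of 68 members were lower in animals A, B and D. Without animal D, 64 of 70 tested members were lower, with a median of -1.25 against -0.68 for all genes. With RLE scaling the median of all genes moved to -0.24 and that of the members to -1.12, with 55 of 68 lower. Every resting sum lay below every proliferative sum for 11 of 68 members (16.2%), against 10.5% of all genes tested, and the reverse held for 0 members and 3.85% of genes.

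**Figure D3:**
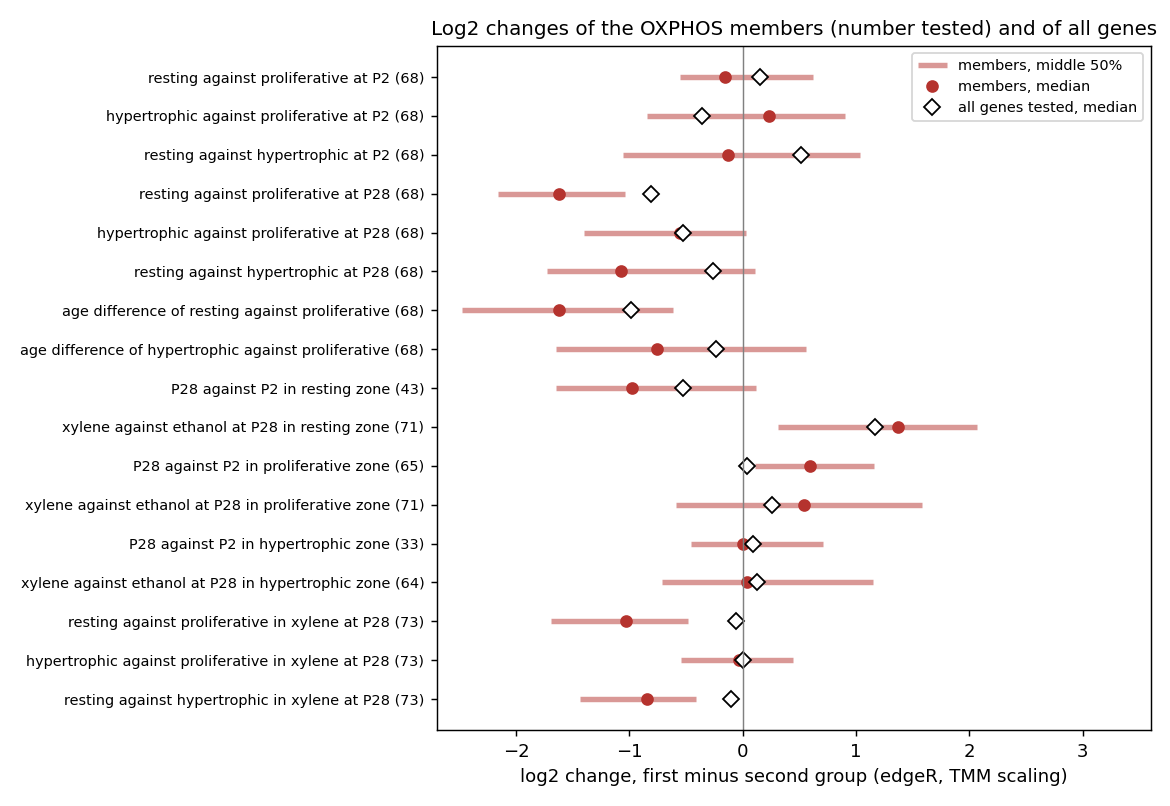
Log2 differences (x axis) in each comparison (y axis, number of members tested in brackets). Filled circles are the members' median, bars their middle 50%, and open diamonds the median of all genes tested; the members' median lies furthest below that of all genes in resting against proliferative at P28, in ethanol and in xylene, and in resting against hypertrophic at P28.

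Cox4i2 had the largest estimate. In proliferative sums of animals A, B and D it had 36, 72 and 55 counts, or 159, 152 and 146 CPM. In resting sums of the same animals it had 2, 0 and 0 counts, and in hypertrophic sums 5, 16 and 35, or 78.7, 78.6 and 110 CPM. The resting and proliferative values did not overlap, and the 3 proliferative values lay close together. Over the summed zones the proliferative level was 22.7 times the resting level, with an exact 95% counting interval of 6.17 to 189 that leaves out the spread between animals. The fitted log2 difference was -4.95 ± 1.83 (SE), with an edgeR adjusted p of 0.261, and over 18 alternatives the adjusted p ran from 0.0802 to 0.907.

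In xylene sections Cox4i2 stood at 156 and 100 CPM in proliferative and at 54.95 and 30.1 in resting sums of animals D and E, from 471, 143, 53 and 13 counts. The hypertrophic sums held 55.2 and 128. At P2 the gene was at 0 in all 3 sums of animal A, and in animals D and G it was at 139 and 84.8 CPM in proliferative, 54.3 and 21.5 in resting and 5.11 and 4.66 in hypertrophic sums. In those 2 animals the order was proliferative, resting, hypertrophic. Of the animals with 1 zone each, Cox4i2 was at 0 in proliferative animal E and hypertrophic animal C and at 37.0 CPM in resting animal F. The fitted hypertrophic minus proliferative difference at P2 was -3.98 ± 1.91 (SE, edgeR adjusted p = 0.303).

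Cox4i1, the ubiquitous form, had 182, 311 and 346 CPM in P28 proliferative sums of animals A, B and D and 137, 157 and 42.01 in resting sums. Those groups did not overlap, while the hypertrophic values of 346, 49.1 and 486 spanned both. In xylene the resting and proliferative values of Cox4i1 overlapped. Its fitted resting minus proliferative difference was -1.71 ± 1.02 (SE, edgeR adjusted p = 0.560). Of the counts of both isoforms, Cox4i2 held 46.8%, 32.9% and 29.7% in P28 proliferative sums and 33.4% and 37.5% in xylene. In xylene resting sums it held 16.4% and 21.3%, with exact 95% intervals of 12.5% to 20.9% and 11.9% to 33.7%. The ethanol resting sums held 12, 13 and 6 counts of the 2 genes together, too few to fix a share.

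**Figure D4:**
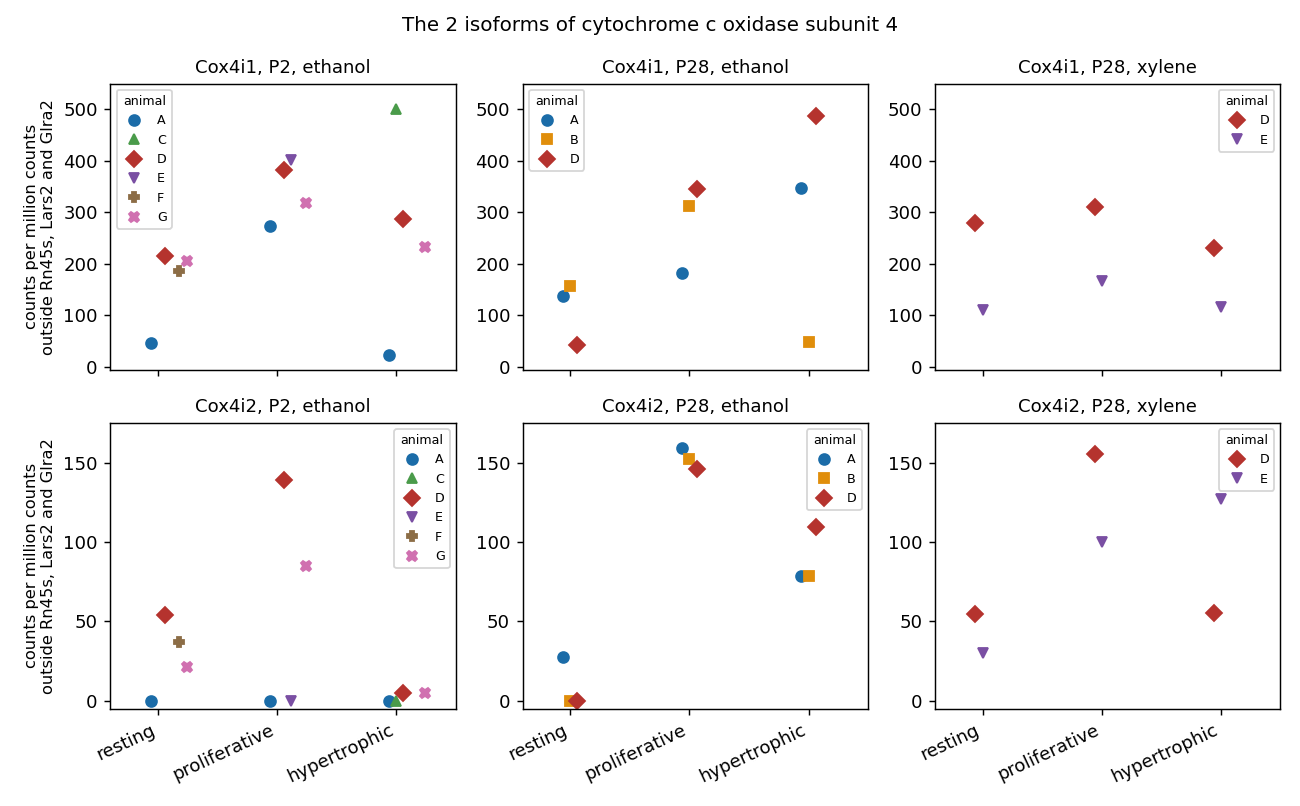
Cox4i1 (upper row) and Cox4i2 (lower row) in CPM outside Rn45s, Lars2 and Glra2 (y axis) by zone (x axis), 1 point per animal, for P2 ethanol, P28 ethanol and P28 xylene. Cox4i2 lies at 146 to 159 in the 3 P28 ethanol proliferative sums and at 0 to 27.4 in the resting sums.

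Cox6a1 showed how far single sums can carry a member. Its P28 proliferative levels were 474, 430 and 1066 CPM in animals A, B and D, and its resting levels 820, 121 and 7.001. Animal A thus ran against the other two, and the groups overlapped. Atp5e was at 283, 347 and 441 in proliferative and at 246, 48.3 and 14 in resting sums, without overlap, and its fitted difference was -2.63 ± 1.12 (SE, edgeR adjusted p = 0.353). Atp5b, the catalytic beta subunit, and Atp5a1, the alpha subunit, had -2.22 ± 0.984 and -2.08 ± 0.939, with edgeR adjusted p of 0.385 and 0.396.

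Atp5g3 stood at 456, 417 and 194 CPM in proliferative and 287, 60.4 and 56.01 in resting sums. In xylene it had 464 and 815 against 362 and 41.7, with a fitted difference there of -2.67 ± 1.24. Among complex I members Ndufc1 was at 164, 133 and 47.9 in proliferative and 41.02, 24.2 and 0 in resting sums, and Ndufa2 at 168, 396 and 109 against 287, 157 and 7.001. Ndufc1 did not overlap between the zones and Ndufa2 did. The complex II subunit Sdhb had 57.6, 108 and 42.5 against 41.02, 24.2 and 0, which also did not overlap. In xylene both Ndufc1 and Sdhb overlapped between these zones. Sdhb stood there at 24.5 and 38.5 CPM in proliferative and 63.3 and 9.26 in resting sums of animals D and E. In complex III, Uqcr11 had 288, 252 and 277 against 137, 302 and 0, and Uqcrh, the hinge protein, 173, 159 and 114 against 397, 133 and 161, so that both overlapped.

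The opposite sign was rare and rested on few sums. Ndufs1, the largest core subunit of complex I, had a resting minus proliferative estimate of 2.17 ± 1.66 (SE, edgeR adjusted p = 0.665). Its resting values were 164, 0 and 1316 CPM, the last from the 188 counts in animal D, and its proliferative values 84.1, 31.8 and 2.66. In xylene sections of the same animal D it stood at 35.2 in resting and 51.9 in proliferative sums.

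The xylene sections gave the same lean in separate libraries. In a fit over 27 sums with a term per animal and fixation, added after the data were seen, 64 of 73 tested members were lower in the resting than in the proliferative zone. Their median log2 difference was -1.03, against -0.06 for all genes, of which 52.2% were lower. No member was called by edgeR, beside 0.14% of 10717 genes, 1 (Atp5g3) had an unadjusted p under 0.05, beside 4.12% of genes, and DESeq2 was not run on this fit. Of the 68 members tested in both fixations, 57 were lower in resting in both, 2 were higher in both, 5 were lower in ethanol alone and 4 in xylene alone. Animal D supplied sections to both, and the spread is shared through the fit, so that the fixations are not fully independent. Each xylene resting sum was again 1 library, with 964498 and 431938 counts outside the 3 symbols in animals D and E. The proliferative sums held 3023512 and 1427403, from 3 and 2 libraries. With 2 sums a side, every resting sum lay below every proliferative sum for 29 of 68 members (42.6%), against 19.2% of genes, and above for 2 members, against 20.4% of genes.

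**Figure D5:**
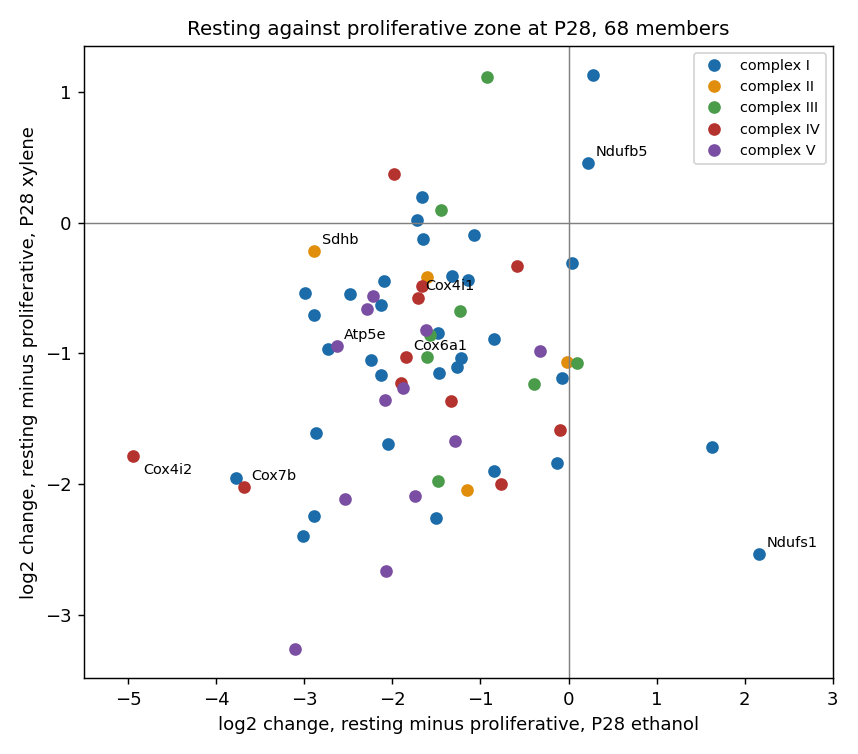
Log2 difference of resting minus proliferative zone at P28 in ethanol (x axis) and xylene (y axis) for 68 members, coloured by complex. The lower left field holds 57 members, Cox4i2 lies furthest left at -4.95, and Ndufs1 lies to the right in ethanol and low in xylene.

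The hypertrophic zone at P28 differed less from the proliferative zone. No member was called by edgeR or DESeq2, beside 1.12% of genes by edgeR, and 2 had an unadjusted p under 0.05, both lower, beside 12.2% of genes. In ethanol 50 of 68 members were lower in the hypertrophic zone with a median of -0.55, close to the -0.52 of all genes. In xylene 37 of 73 were lower with a median of -0.03, where no member was called, beside 0.14% of genes, and 0 had an unadjusted p under 0.05, beside 3.93% of genes. Atp5f1, subunit b of the ATP synthase stalk, was at 0 in all 3 ethanol hypertrophic sums and had 20, 47 and 10 counts in the proliferative sums. Against a floor of 3 counts over the group it was at least 14-fold lower, and the edgeR adjusted p was 0.102, with 0.0554 to 0.527 over 18 alternatives. In xylene the same gene was at 141 and 118 CPM in hypertrophic and 135 and 117 in proliferative sums. Atp5f1 has 61.3% unique stretches and shares sequence with Wdr77. The xylene hypertrophic sum of animal D included 1 library with a summed osteoblast marker level of 187900 CPM against 667 to 2299 in the other 4, and its part in these values was not tested.

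In ethanol, the lean of resting against hypertrophic zone at P28 depended on animal D. Over all 3 animals 47 of 68 members were lower in resting with a median of -1.08, against -0.27 for all genes, and edgeR called none, beside 1.77% of genes. At an unadjusted p under 0.05, 7 members were lower and 2 higher, beside 13.7% of genes. Without animal D, 36 of 70 were lower with a median of -0.02, against 0.07 for all genes. DESeq2 called 2 members, beside 4.73% of genes by that tool: Cox7b, an X-linked subunit of cytochrome oxidase, at -4.62 (adjusted p = 0.0282) and the complex I subunit Ndufc2 at -3.88 (adjusted p = 0.0390). With edgeR these had adjusted p of 0.0786 and 0.158, and over 18 alternatives 0.0282 to 0.511 and 0.0390 to 0.544. Cox7b had 0, 3 and 0 counts in resting sums and 11, 47 and 33 in hypertrophic sums of animals A, B and D, which did not overlap. Its hypertrophic level over the group was 15.5 times the resting level (exact 95% counting interval 5.13 to 76.4).

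In xylene, 61 of 73 members were lower in resting than in hypertrophic sums, with a median of -0.84 against -0.10 for all genes. None was called by edgeR, beside 0.448% of genes, 1 had an unadjusted p under 0.05, beside 6.57% of genes, and DESeq2 was not run there. The lean was present in animal E without animal D, with 57 of 73 members lower and a median of -1.13 against 0.40 for all genes. Cox7b was at 60.1 and 97.2 CPM in resting and 223 and 121 in hypertrophic sums of animals D and E. Both resting values lay below both hypertrophic values in this fixation too.

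At P2 the members showed no common direction between zones. Animals C, E and F gave 1 zone each and are absorbed by their own animal terms. The fitted P2 zone differences therefore rest on animals A, D and G. For resting against proliferative 38 of 68 were lower (median -0.16, all genes 0.15), for hypertrophic against proliferative 29 (0.23, all genes -0.36), and for resting against hypertrophic 35 (-0.13, all genes 0.52). No member was called in any of the 3 by edgeR, beside 0.259%, 2.31% and 3.77% of genes. At an unadjusted p under 0.05 there were 1, 1 and 0 members, beside 4.14%, 14.2% and 16.6% of genes. DESeq2 also called no member, and its share of genes is not given here. The zone labels at P2 were otherwise reflected in the table, since 5 of 7 tested hypertrophic markers were called against the proliferative zone. Cox5a, Cox6a1 and Uqcrq had every resting sum below every hypertrophic sum, that is 4.41% of members, against 2.26% of genes, while the reverse held for 0 members and 10.3% of genes. For Uqcrq, a small complex III subunit, the resting values were 57.2 to 119 CPM and the hypertrophic values 158 to 429.

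The change of the resting lean with age was tested directly. The difference between P28 and P2 in resting against proliferative was below 0 for 55 of 68 members, with a median of -1.63 against -0.98 for all genes. These values are given only with P28 animal D included, and their P2 side rests on animals A, D and G. No member was called by edgeR or DESeq2, beside 0.144% of genes by edgeR, and 2 had an unadjusted p under 0.05, beside 6.78% of genes. For hypertrophic against proliferative 47 of 68 were below 0 (median -0.76, all genes -0.24), with 0 called by either tool, beside 0% of genes by edgeR, and 1 member under 0.05 unadjusted, beside 5.94% of genes.

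Compared directly between ages, members leaned in different directions by zone. In the proliferative zone 50 of 65 tested members were higher at P28 than at P2, with a median of 0.59 against 0.04 for all genes, and Cox6a1 at 1.88 ± 0.893 (SE, edgeR adjusted p = 0.789) was the only member with an unadjusted p under 0.05. In the resting zone 31 of 43 were lower at P28 with a median of -0.98 against -0.53. Without P28 animal D these were 36 of 65 and -0.19 against -0.39. In the hypertrophic zone 17 of 33 were higher with a median of 0.01. The edgeR test called no member in the proliferative, resting or hypertrophic zone, beside 0.679%, 0.872% and 0.102% of genes, and 1, 3 and 0 were under 0.05 unadjusted, beside 5.62%, 10.1% and 5.25% of genes. DESeq2 called 0, 1 and 0 members, beside 0.891%, 2.74% and 1.07% of genes.

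The gene called by DESeq2 was Ndufb6, an accessory subunit of complex I, in the resting zone. It had 1628, 158, 62.7 and 141 CPM in the P2 resting sums of animals A, D, F and G and 0, 0 and 14 at P28. The ages did not overlap, and animal A was far above the other P2 animals. The fitted difference was -5.48 ± 1.55 (SE, edgeR adjusted p = 0.104; DESeq2 adjusted p = 0.0276), and the adjusted p over 15 alternatives ran from 0.0003597 without P28 animal D to 0.413 without P2 animal A. Xylene sections at P28 held 74.7 and 64.8 CPM in resting sums, inside the P2 range. Of the exon bases of Ndufb6, 39% overlap those of Smim27, and SMART-seq2 libraries do not mark strand.

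Fixation was compared at P28 with age and deposited set as further terms. With every xylene sum in 1 set, the set term rests on the ethanol sums. The fits had no animal term, so the ethanol and xylene sums of P28 animal D entered as if from separate animals. Xylene sums were higher than ethanol sums in 55 of 71 members in the resting zone (median 1.37, all genes 1.17), 43 of 71 in the proliferative zone (0.54, all genes 0.26) and 33 of 64 in the hypertrophic zone (0.04, all genes 0.12). No member was called by edgeR or DESeq2, beside 0.152%, 0.113% and 0.0214% of genes by edgeR, and 3, 3 and 1 had an unadjusted p under 0.05, beside 8.78%, 8.39% and 5.72% of genes. Ndufs1 had the smallest p, at -5.24 ± 1.57 in the resting zone (SE, edgeR adjusted p = 0.140), and was called with RLE scaling at -5.88 (0.0363), beside 0.386% of genes. Without P28 animal D the resting median was -0.39, and without the deposited set term it was 0.54. With the P28 sums alone, 4 of 70 members were called in the proliferative zone, beside 4.78% of genes: Uqcrq at -2.45 ± 0.492 (SE, edgeR adjusted p = 0.0329), Cox6a1 at -1.76 ± 0.419 (0.0493), Ndufa4 at 4.62 ± 1.05 (0.0454) and Cox7b. In the fit with P2 sums Ndufa4 had 3.82 ± 1.69 (SE, edgeR adjusted p = 0.501).

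Many members covaried across sums. Over the 21 ethanol sums, centred by zone and age, 33 of 68 members (48.5%) had a Spearman correlation above 0.5 with the mean of the other members, and 16.7% of 6890 other genes had one with the members' mean. Sums share library depth and animal, so these are descriptions. Atp5b at 0.86 and Ndufc2 at 0.83 were the highest members and Ndufs8 at -0.17 the lowest. Among the other genes with the highest correlation were Ywhaq (0.90), Vamp3 (0.89), the mitochondrial ribosomal protein gene Mrpl17 (0.87), Ccdc127 (0.86) and Eif1 (0.86).

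Neighbouring mitochondrial and energy genes gave a background for the resting zone at P28. Lower in resting than in proliferative sums were 39 of 48 mitochondrial ribosome genes (median -1.61), 11 of 12 genes of the tricarboxylic acid cycle (-1.23), 7 of 9 of the pyruvate dehydrogenase group (-4.48), 5 of 6 complex I assembly factors (-1.999), 12 of 15 assembly factors of complexes II to V (-1.79), 6 of 8 electron carrier genes (-0.49) and 5 of 7 carriers and porins (-0.21). None of these genes was called. Cytosolic ribosomal genes were lower in 42 of 48 (-0.72), close to the median of all genes. The glycolysis and hypoxia list was lower in 14 of 17 (-3.30) and 4 of its genes were called lower: Ldha at -3.30 ± 0.843 (SE, edgeR adjusted p = 0.0236), Aldoa at -3.64 ± 0.957 (0.0313), Ndufa4l2 (0.0276) and the lactate exporter Slc16a3 (0.0236). These calls were not stable: over 18 alternatives Ldha and Slc16a3 were called in 9 and Aldoa and Ndufa4l2 in 8, always with the same sign. Without the animal term the edgeR adjusted p was 0.247 for Ldha, 0.122 for Slc16a3, 0.232 for Aldoa and 0.172 for Ndufa4l2, and all 4 calls were also lost with RLE scaling and without P2 animal D, P28 animal B or P28 animal D.

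Ndufa4l2, the hypoxia-induced relative of Ndufa4 that the name rule leaves out, was at 0 in all 3 P28 resting sums and had 161 counts in the proliferative sums, at least 14.9-fold lower against a floor of 3 counts over the group. Slc16a3 was likewise at 0 against 239 counts, at least 22.2-fold lower, and was also called lower in hypertrophic than in proliferative sums at P28 (edgeR adjusted p = 0.00952, or 0.0561 without the animal term), in 14 of 18 alternatives. In xylene the list was lower in resting in 14 of 17 genes (median -1.74), with none called, and Ldha there had -2.61 ± 0.916 (SE, edgeR adjusted p = 0.769). Elsewhere Pdk1, which restrains pyruvate dehydrogenase, was called higher in resting than in hypertrophic sums at P2 (4.98 ± 1.41, SE, edgeR adjusted p = 0.0182), in 14 of 18 alternatives but not without P2 animal A, D or G. Mrpl9 was called lower in xylene than in ethanol proliferative sums (-5.89 ± 1.36, SE, edgeR adjusted p = 0.0307), but in 9 of 19 alternatives, and without P28 animal D the estimate was 3.19 ± 3.28.

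The regulators of these genes were thinly covered. Of 13 listed, 6 passed the filter and none was called. In resting against proliferative at P28, Pprc1 had -8.07 ± 3.11 (SE, edgeR adjusted p = 0.294), Gabpa -3.14 ± 2.87, Tfam -1.89 ± 2.30, Yy1 -1.77 ± 1.47, Gabpb1 -0.59 ± 2.17 and Nrf1 0.29 ± 3.65. Ppargc1a, the PGC-1alpha coactivator, did not pass this filter and in the fit with xylene sums had -1.78 ± 2.53 for resting against proliferative.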

How the data were processed

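Laser-captured growth plate zones were read as gene counts deposited by the authors in 1 table. The submitters' processing notes name cutadapt, STAR 2.5.2b, featureCounts 1.5.3, Subread and mm10; strand and multi-mapping settings are not stated. Columns sharing a title were summed (100 columns, 68 libraries); in 25 pairs of runs the chi-square per degree of freedom was at most 1.03. Libraries of at least 100000 counts were summed per animal, zone and fixation.

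The deposited counts were tested with edgeR 4.0.16 (TMM, filterByExpr, quasi-likelihood, Benjamini-Hochberg over all genes tested; R 4.3.3), and DESeq2 1.42.0 served as an alternative. Zones: 21 ethanol sums, animal as replicate block, 8 residual degrees of freedom; same-animal sums correlated at -0.00376 to 0.259 over 18 pairs, and the block rests on the labels' animal names. Ages and fixations: the presence of a sample description as a term (deposit set). Where both shares of genes are given, DESeq2 called more than edgeR, as in 4.73% against 1.77% for resting against hypertrophic at P28. Where a DESeq2 count of members has no share of genes beside it, the edgeR share does not stand in for it. The code was tested on simulated data. Members, lists and the rule for named genes (the 2 highest per kb of each complex, the tissue isoforms, the largest changes, genes called in other lists, the tested regulators and the genes most like the members) were chosen with earlier results of these data known. Separate sections of an animal are not separate animals. The edgeR p-values measure the spread between these sums as pooled over genes by the fit, not each gene's own spread alone. In the zone comparisons they follow the normal tail of the estimate over its SE, not a t distribution on 8 degrees of freedom. The SE and the p-value there give each other, so the SE is not a separate measure of spread. It is unreliable where the estimate is very small. It was 44.6 for Ndufs8 at -0.0387 (hypertrophic against proliferative, P2) and 0.287 for Ndufb9 at -0.000556 (P28 against P2, proliferative).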

Additional observations from a re-analysis of the deposited data

Results flagged for a closer look

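In 85 groups of 4 sums at P2, 10 values, all high, stood apart from the other 3. The gap used is one that chance gives in about 1 group in 20 for normally distributed values. That rate does not apply here, since a single count beside zeros is always flagged and some genes were examined because of their values in these data. The highest in CPM was Ndufb6 in resting animal A, at 1628 CPM against 62.7 to 158 in the others. In proliferative sums animal D was high for Ndufb6 (221.5 CPM against 0 to 19.5), Sdhb (125 against 0 to 20.1) and Ndufs1 (63.6 against 0 to 6.70). Complex III made up 21.1% of member counts in proliferative animal E and 8.42% to 9.19% in the others. Ndufb10 was at 123 CPM in hypertrophic animal G and at 40.9 to 49.9 in the others. The muscle isoforms were apart where a few counts met zeros: Cox6a2 at 38.9 and Cox8b at 19.5 CPM in proliferative animal A, and Cox6a2 at 0.665 and Cox8b at 3.33 in hypertrophic animal G.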

How the results depend on the processing

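In the 14 planned comparisons no member was called, and most alternatives kept that count at 0. The exceptions were 1 member (Ndufs1) with RLE scaling for xylene against ethanol in the resting zone, 2 with DESeq2 for resting against hypertrophic at P28, 1 (Ndufb6) with DESeq2 and 1 without the low-count filter for P28 against P2 in the resting zone, and 4 with P28 sums only for xylene against ethanol in the proliferative zone. Leaving out 1 animal gave 0 to 1 for P28 against P2 in the resting zone (1 without P28 animal D) and 0 elsewhere. Shares of all genes are not given for the call without the low-count filter or for the call without P28 animal D. Without the replicate block that ties the zones of an animal, the paired comparisons still called 0 members. Of 4571 recomputed values of named members, 4426 moved by less than 1 standard error, 136 moved further, 9 passed the threshold and 228 had the other sign. That yardstick is wide, since the members' median standard error ran from 1.18 to 2.18 (log2) over the comparisons. The count of 4426 therefore says little about stability. Outside the members, Mrpl9 ran from -7.16 to 3.19 (log2, xylene against ethanol in the proliferative zone) when 1 animal was left out, with the reversed sign without P28 animal D; the cause was not tested. The number of all genes called in resting against proliferative at P28 was 39, and 2 without the replicate block, 18 with RLE scaling and 122 with DESeq2. The resting sums at P28 held 363 to 580 member counts, and the median standard error of a member there was 1.55 on the log2 scale.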
